A study of Mus musculus with 8 samples.

Results

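Cyclic AMP phosphodiesterases are the enzymes that break down cyclic AMP, and 10 of the genes that encode them were followed by name through 8 mouse tumors. The 10 genes, Pde4a, Pde4b, Pde4c, Pde4d, Pde3a, Pde3b, Pde7a, Pde7b, Pde8a and Pde10a, were matched by symbol, and all 10 are among the 49671 Ensembl genes of the count table. The tumors formed in mice of the genotype HprtCre with loxP sites at Ewsr1 and at Atf1, in which recombination can fuse the gene of an RNA-binding protein to that of a CREB-family transcription factor. The human counterpart of this fusion marks clear cell sarcoma. No drug was given, primary tumors were frozen at morbidity, and total RNA was sequenced after removal of ribosomal RNA. There is 1 group and no control tissue, so levels are described tumor by tumor. The tumors are numbered 1, 2L, 2R, 3, 4a, 4b, 5 and 6, and the labels do not state what a shared number means or whether the samples came from separate animals. Every p-value therefore measures only the spread between these samples, which may be technical.

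Cyclic AMP is made by adenylyl cyclases under the control of stimulatory and inhibitory G proteins. It activates protein kinase A, which phosphorylates factors of the CREB and ATF family, and phosphodiesterases end the signal. The enzymes encoded by Pde4, Pde7 and Pde8 genes are specific for cyclic AMP, those of Pde3 genes cleave cyclic AMP and are inhibited by cyclic GMP, and that of Pde10a cleaves both nucleotides. Pde4 genes are known from other cells as targets of CREB itself, which makes them part of a negative feedback.

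Libraries held between 4817902 counts in tumor 3 and 19682149 in tumor 2L. Outside mitochondrial genes and 5 abundant noncoding RNAs, tumor 3 retained 25.2% of its counts and the other 7 libraries between 60.3% and 95.6%, so the values of tumor 3 rest on the fewest reads. Of 7 melanocytic markers, 3 reached a mean of 1 CPM (counts relative to the library size, scaled by the trimmed mean of M values). Mitf stood at 30.3 to 130.5 CPM, and Dct averaged 18.8 CPM, with 74.04 CPM in tumor 3, 27.4 CPM in 2L and no count in tumor 6. Pmel averaged 1.04 CPM, Sox10 did not exceed 0.235 CPM, and Tyr, Tyrp1 and Mlana had no count in any library. The libraries are mixtures, and fewer cells of a type and less RNA per cell cannot be told apart in them.

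With all exons of a gene as its length, Pde4d, Pde10a and Pde4b led the family at similar levels, followed at a distance by Pde3a. With the longest transcript as length the 3 were less alike. Their mean shares of the summed level of the 10 genes were then 34.7%, 19.6% and 27.5%. Per kilobase of exons, Pde4d averaged 19.6 ± 4.17, Pde10a 19.05 ± 5.53 and Pde4b 18.1 ± 6.59 CPM per kilobase (SD, n = 8). Among all 15193 named genes with a mean of at least 1 CPM, these levels lay at the 89.8th, 89.4th and 88.7th percentile. Pde3a followed at 9.06 ± 4.01 CPM per kilobase, then Pde8a at 5.02 ± 1.94, Pde3b at 4.28 ± 2.06, Pde7a at 2.93 ± 1.33, Pde4a at 1.67 ± 0.963 and Pde7b at 0.728 ± 0.284 (SD, n = 8). Pde4c, with 22 counts in all libraries together, was the only one of the 10 below a mean of 1 CPM. The median percentile of the 9 others was 57.3. Without tumor 3 the order at the top was Pde4b at 20.1 ± 3.84, Pde4d at 19.3 ± 4.44 and Pde10a at 18.2 ± 5.34 CPM per kilobase (SD, n = 7).

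**Figure D1:**
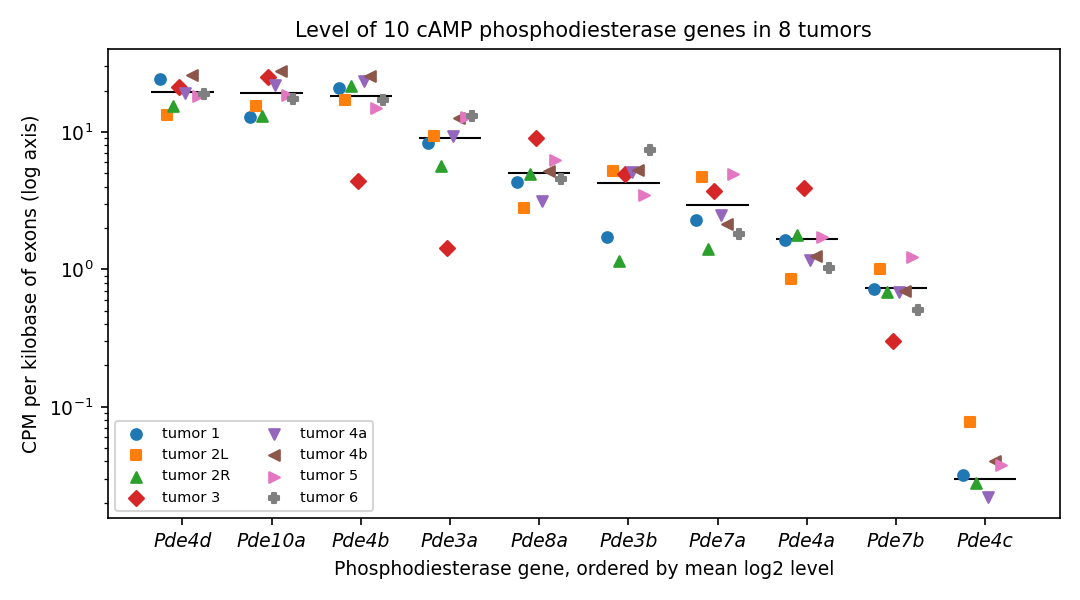
Level of each gene in CPM per kilobase of exons (log axis), with 1 symbol per tumor and a bar at the mean of 8 tumors; libraries in which Pde4c had no count (3 and 6) are not drawn for that gene. Pde4d, Pde10a and Pde4b share the top at means of 18.1 to 19.6, and tumor 3 lies far below the other 7 for Pde4b and Pde3a.

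Neighbours in this order were compared within tumors, in log2 CPM per kilobase averaged over libraries of the same number, with a two-sided exact sign-flip permutation test over the 6 numbers. The smallest p this design allows is 0.03125, and 0 of 9 neighbours passed after Benjamini-Hochberg adjustment. A pair at that smallest p stays above 0.05 after adjustment unless most pairs share it, so 0 passing shows little. The order was set from the means of these same values, so the direction of each mean step was fixed beforehand. Pde4d exceeded Pde10a by 0.10 ± 0.41 (SD, n = 6; adjusted exact permutation p = 0.813), and Pde10a exceeded Pde4b by 0.29 ± 1.15 (adjusted exact permutation p = 0.813), so with the union of exons as length the leading places were not separated beyond their spread. With the longest transcript Pde4d exceeded Pde10a by 0.89 (adjusted exact permutation p = 0.0703). The same direction was seen for 3 steps in 6 of 6 numbers, each with an adjusted exact permutation p of 0.0938. These were Pde4b over Pde3a by 1.02 ± 0.57, Pde4a over Pde7b by 1.29 ± 1.19 and Pde7b over Pde4c by 3.88 ± 0.38 on the log2 scale. Pde4c had 22 counts in all and none in tumors 3 and 6, so the size and spread of its step depend on the prior count. With a prior count of 0.5 in place of 2 that step was 4.88. With the 8 libraries as units those 3 steps passed, at adjusted exact permutation p of 0.0352, 0.0469 and 0.0352. That setting allows a smaller p, and it counts libraries of the same number as independent, which the labels do not settle. Pde3a over Pde8a, Pde8a over Pde3b, Pde3b over Pde7a and Pde7a over Pde4a differed by 0.43 to 0.78, with adjusted exact permutation p of 0.141 to 0.643. The order rests on gene models: with the longest transcript as length the difference of Pde10a over Pde4b was -0.28, and without division by length that of Pde8a over Pde3b was -0.735.

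The Pde4 genes encode the main cyclic AMP-specific enzymes of many cells, with long and short forms made from separate promoters. Pde4b (ENSMUSG00000028525, chromosome 4, 102087543 to 102607259 on mm10) has 13 annotated transcripts and Pde4d (ENSMUSG00000021699, chromosome 13, 108449948 to 109953461) has 20, and counts per gene do not separate them. RefSeq promoter windows on GRCm38.p6, from 250 bases before to 50 bases after a start site, matched 7 of the 10 genes in 13 windows. Pde4b has 4 of these windows and Pde4d has 1. The upstream Pde4b window and the Pde4d window are shown because these genes parted in tumor 3. Both lie inside the spans of their genes, so start sites further upstream are not covered. Whether these letters have a part in the levels of either gene was not tested. Capitals mark the short form of the cyclic AMP response element, TGACG, searched on both strands; the full element TGACGTCA contains it.
Pde4b promoter, chr4:102421305-102421604, plus strand: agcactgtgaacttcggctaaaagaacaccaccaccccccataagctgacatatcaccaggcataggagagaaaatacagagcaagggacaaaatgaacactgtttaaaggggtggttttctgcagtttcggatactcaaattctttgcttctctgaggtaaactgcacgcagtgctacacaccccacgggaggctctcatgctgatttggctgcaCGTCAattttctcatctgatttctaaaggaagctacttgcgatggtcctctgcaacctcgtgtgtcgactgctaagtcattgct
Pde4d promoter, chr13:108653927-108654226, plus strand: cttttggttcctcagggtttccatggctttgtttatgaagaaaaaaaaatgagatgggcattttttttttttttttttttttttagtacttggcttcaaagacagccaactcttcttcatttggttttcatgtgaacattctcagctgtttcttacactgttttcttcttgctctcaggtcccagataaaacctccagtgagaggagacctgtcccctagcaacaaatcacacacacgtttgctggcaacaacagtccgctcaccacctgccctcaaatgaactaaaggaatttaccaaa
The short element in the Pde4b window shown begins 34 bases before the start and reads on the minus strand. The other Pde4b windows and the Pde4d window hold none. Of the 13 windows 3 (23.1%) held the short element, in Pde4b, Pde8a and Pde4a, and 0 held the full element. Of all 32851 RefSeq windows, 20.8% held the short element and 1.79% the full one. A match describes the letters and not a bound site.

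Pde4d, whose product is a major cyclic AMP-specific enzyme of heart and brain, had the smallest spread of the 9 genes tested. It stood at 289 CPM in tumor 1, at 159 and 186 CPM in the libraries 2L and 2R, at 256 CPM in tumor 3, at 230.4 and 311 CPM in the libraries 4a and 4b, at 221 CPM in tumor 5 and at 225 CPM in tumor 6. Its SD of log2 CPM, 0.316, lay at the 14.9th percentile of the genes tested, and its highest library exceeded its lowest 1.95-fold. No tumor stood apart for Pde4d with this scaling, while with library totals tumor 3 was lowest, at 99.8 CPM. Without tumor 3 the smallest spread was that of Pde4b, with an SD of log2 CPM of 0.277 against 0.335 for Pde4d.

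Pde4b, which in immune cells sets inflammatory responses, stood at 219.7 CPM in tumor 1, at 181 and 228 CPM in the libraries 2L and 2R, at 46.3 CPM in tumor 3, at 248 and 271 CPM in the libraries 4a and 4b, at 159 CPM in tumor 5 and at 180.3 CPM in tumor 6. Tumor 3 was low and the other 7 lay within 159 to 271 CPM. The ratio of both genes within a library does not depend on how libraries are scaled. Pde4b made up 15.3% of the counts of Pde4b and Pde4d together in tumor 3 (87 counts against 481 of Pde4d, exact 95% binomial interval 12.5 to 18.6%). In the other 7 it made up 41.8% to 55.0%, with intervals from 40.2% to 56.9%. These intervals cover counting error only.

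**Figure D2:**
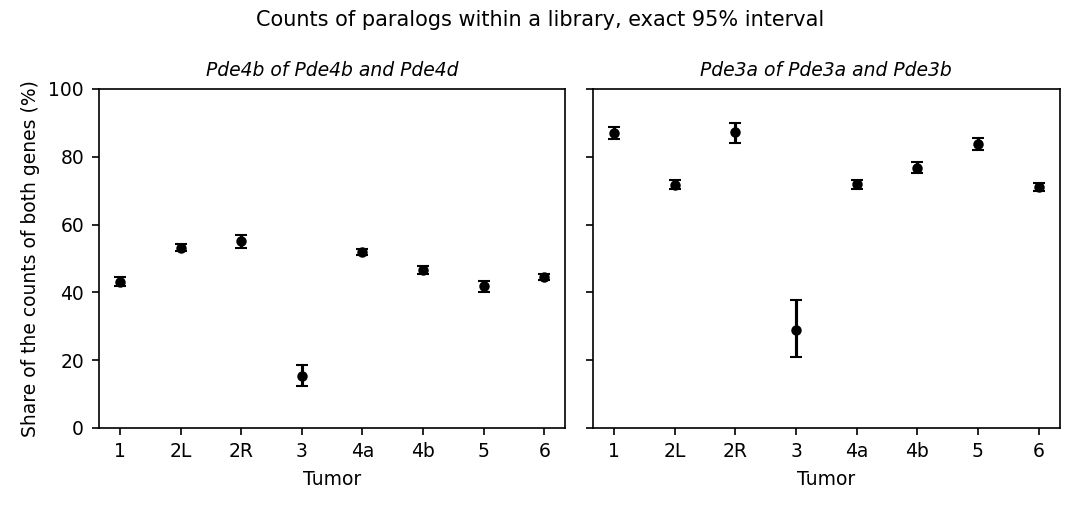
Share of Pde4b in the counts of Pde4b and Pde4d (left) and of Pde3a in the counts of Pde3a and Pde3b (right) in each tumor, with exact 95% binomial intervals for counting error. Tumor 3 stands at 15.3% and 28.8%, below the 41.8% to 55.0% and 71.0% to 87.3% of the other 7.

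Pde4a, a broadly expressed member (ENSMUSG00000032177, chromosome 9, 21165714 to 21213248), was far less abundant. It stood at 12.6 CPM in tumor 1, at 6.505 and 13.7 CPM in the libraries 2L and 2R, at 29.8 CPM in tumor 3, at 8.94 and 9.60 CPM in the libraries 4a and 4b, at 13.3 CPM in tumor 5 and at 7.845 CPM in tumor 6. Tumor 3 was highest with this scaling, on 56 counts, but with library totals in place of the trimmed mean it stood at 11.6 CPM, below the 13.6 CPM of tumor 1. Pde4c (ENSMUSG00000031842, chromosome 8, 70723720 to 70751186), which is restricted to a few tissues, had 11 counts in 2L and at most 3 in any other library. It had none in 3 and 6, which allows up to 1.60 and 0.122 CPM there.

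Pde10a, best known from the striatum of the brain (ENSMUSG00000023868, chromosome 17, 8525372 to 8986648), stood near the leading Pde4 genes in CPM per kilobase of all exons. With the longest transcript as length its level was 0.311 to 0.685 times that of Pde4d, below Pde4d in 8 of 8 libraries. It stood at 166 CPM in tumor 1, at 199.9 and 168 CPM in the libraries 2L and 2R, at 324 CPM in tumor 3, at 282 and 359 CPM in the libraries 4a and 4b, at 237 CPM in tumor 5 and at 224 CPM in tumor 6. The highest tumor, 4b, exceeded the lowest, tumor 1, 2.16-fold, and its SD of log2 CPM, 0.415, lay at the 27.4th percentile of the genes tested. Tumor 4b was highest under all 4 scalings tried, but the lowest library and the spread depended on scaling. With library totals tumor 3 was lowest, at 126 CPM against 422 CPM in 4b. With totals without abundant and mitochondrial RNA 2R was lowest, at 227 CPM. In tumor 3, 608 counts supported the level of Pde10a, and there the ratio of Pde10a to Pde4b, which no scaling moves, was highest.

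The Pde3 pair, enzymes of heart, platelets and fat tissue, varied most. Pde3a (ENSMUSG00000041741, chromosome 6, 141249269 to 141507448) stood at 105 CPM in tumor 1, at 119.6 and 71.9 CPM in the libraries 2L and 2R, at 18.1 CPM in tumor 3, at 119.5 and 159.9 CPM in the libraries 4a and 4b, at 164 CPM in tumor 5 and at 165 CPM in tumor 6. Tumor 3 was again apart, on 34 counts. Its SD of log2 CPM, 1.06, lay at the 76.6th percentile of the genes tested, the highest place among the 9 members tested, and without tumor 3 it was 0.437, below the 0.98 of Pde3b and the 0.672 of Pde7a. Pde3b (ENSMUSG00000030671, chromosome 7, 114415281 to 114539251) stood at 15.5 CPM in tumor 1, at 47.1 and 10.4 CPM in the libraries 2L and 2R, at 44.7 CPM in tumor 3, at 46.8 and 48.2 CPM in the libraries 4a and 4b, at 31.7 CPM in tumor 5 and at 67.5 CPM in tumor 6. Tumors 1 and 2R were low, and 2R was lowest and 6 highest under all 4 scalings. Outside tumor 3, and with this scaling, Pde3a too was lowest in 2R and 1 and highest in 6. The ratio of the pair still varied: per kilobase, Pde3a was 1.75 to 4.93 times Pde3b outside tumor 3. In tumor 3 it was 0.290 times Pde3b. Pde3a supplied 71.0% to 87.3% of the counts of both genes in 7 libraries and 28.8% in tumor 3 (exact 95% binomial interval 20.9 to 37.9%). Reads of Pde3a may include the antisense gene Gm28523, which covers 5.82% of its exons and had 157 counts in all, against 15353 for Pde3a.

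Pde7a, best known from T cells (ENSMUSG00000069094, chromosome 3, 19223108 to 19311322), stood at 17.7 CPM in tumor 1, at 36.2 and 10.9 CPM in the libraries 2L and 2R, at 28.8 CPM in tumor 3, at 19.2 and 16.5 CPM in the libraries 4a and 4b, at 38.1 CPM in tumor 5 and at 14.1 CPM in tumor 6. Tumors 5, 2L and 3 were high with this scaling, and 2R was lowest. With library totals tumor 3, on 54 counts, stood at 11.2 CPM, below every library but 2R at 8.92 CPM. Pde7b (ENSMUSG00000019990, chromosome 10, 20398004 to 20725078) stood at 8.88 CPM in tumor 1, at 12.5 and 8.56 CPM in the libraries 2L and 2R, at 3.73 CPM in tumor 3, at 8.49 and 8.69 CPM in the libraries 4a and 4b, at 15.3 CPM in tumor 5 and at 6.30 CPM in tumor 6, with only 7 counts in tumor 3. Per kilobase, Pde7a exceeded Pde7b in 8 of 8 libraries, by 2.04 to 12.4 times, and by 1.08 to 6.57 times with the longest transcript as length. Pde8a, a cyclic AMP-specific enzyme of high affinity (ENSMUSG00000025584, chromosome 7, 81213596 to 81334533), stood at 17.5 CPM in tumor 1, at 11.3 and 19.9 CPM in the libraries 2L and 2R, at 36.2 CPM in tumor 3, at 12.8 and 21.2 CPM in the libraries 4a and 4b, at 25.4 CPM in tumor 5 and at 18.4 CPM in tumor 6. Its high value in tumor 3 depended on scaling: with library totals tumor 3 was lowest, at 14.1 CPM.

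**Figure D3:**
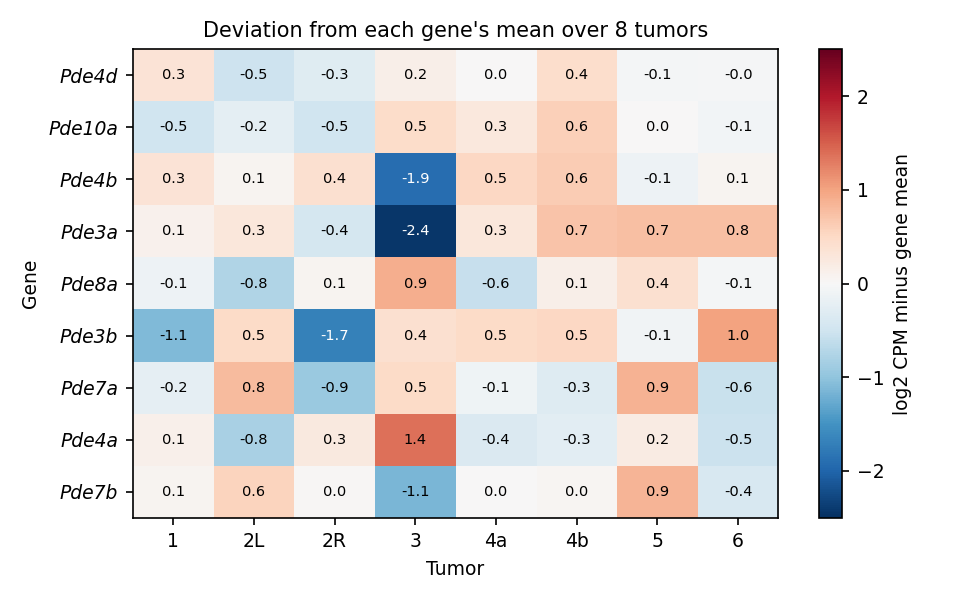
Deviation of log2 CPM from each gene's mean over 8 tumors for the 9 genes with a mean of at least 1 CPM (rows, ordered by level per kilobase; columns, tumors; red above, blue below the mean). Tumor 3 is low for Pde4b and Pde3a, tumors 1 and 2R for Pde3b, while Pde4d and Pde10a stay closest to their means. With library totals, not drawn here, Pde4d and Pde10a were lowest in tumor 3, at 99.8 and 126 CPM.

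Summed per kilobase, the 10 genes gave 80.5 ± 12.6 CPM per kilobase (SD, n = 8), from 65.7 in 2R to 107 in 4b, with tumor 3 at 74.1. The place of tumor 3 depends on scaling, with a factor of 0.394 there. With library totals Pde4d, Pde10a and Pde4b were each lowest in tumor 3, at 99.8, 126 and 18.1 CPM. Shares within a library do not depend on scaling. Pde4 genes supplied 49.1% ± 7.51 of the sum (SD, n = 8), from 39.97% in tumor 3 to 60.7% in tumor 1. Pde10a supplied 23.5% ± 5.16, from 16.8% in tumor 1 to 34.0% in tumor 3. The Pde3 pair supplied 16.4% ± 5.56, from 8.54% in tumor 3 to 25.0% in tumor 6. Pde8a supplied 6.37% ± 2.72 and the Pde7 pair 4.66% ± 2.12. In tumor 3 Pde4b supplied 5.92% and Pde3a 1.92%, against 18.2% to 32.8% and 8.59% to 15.9% in the other 7, while Pde4d supplied 28.8% and Pde10a 34.0% there. With the longest transcript as length the Pde4 genes supplied 64.1% ± 6.83 and the Pde3 pair 9.50% ± 3.43.

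**Figure D4:**
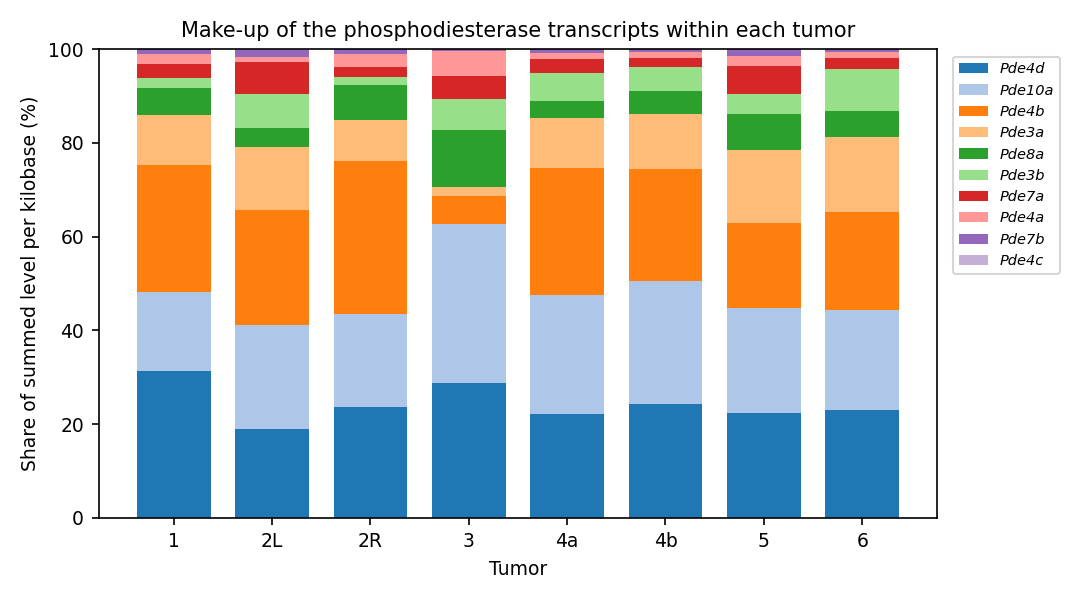
Share of each gene in the summed level per kilobase of exons of all 10 genes within each tumor (stacked bars, percent). Pde4b and Pde3a shrink to 5.92% and 1.92% in tumor 3, where Pde10a reaches 34.0%.

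Tumor 3 differed from the others in many genes. Pde4b and Pde3a, 2 of the 9 genes tested, stood at least 2-fold below the lowest of the other 7 libraries, as did 11.1% of all genes tested. Pde4a, 1 of 9, stood at least 2-fold above the highest, as did 9.07% of all genes tested. The counts are small, and these shares do not set the family apart. Relative to the median of the other 7, tumor 3 held 0.152 times their Pde3a and 0.211 times their Pde4b, which placed these ratios at the 1.98th and 4.39th percentile of all genes tested. Macrophage markers were lowest there too: all 8 of 8 reached 1 CPM on average, none was at 0 throughout, and their summed level was 275 CPM in tumor 3 against 948 to 3818 in the other 7. Skeletal muscle markers (7 of 7 at 1 CPM or more, none at 0 throughout) summed to 6604 CPM in tumor 3 and 20430 in 2L, against 15.0 to 117 in the other 6. The part of these cell types, and of the low depth of tumor 3, in the levels of Pde4b and Pde3a was not tested.

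Between libraries of the same number, 1 library stands on each side and no test applies. Pde3b and Pde7a were higher in 2L than in 2R, by 2.16 and 1.72 on the log2 scale (47.1 against 10.4 CPM, and 36.2 against 10.9 CPM). They were 2 of 9 members at least 2-fold higher in 2L, against 13.2% of all genes tested, and Pde4a was 1 of 9 at least 2-fold lower, at -1.06, against 12.5%. Pde4b, Pde4d and Pde10a differed by -0.33, -0.23 and 0.25. Skeletal muscle markers summed to 20430 CPM in 2L and 117 in 2R, and T and NK cell markers (8 of 8 at 1 CPM or more) to 76.5 and 67.3 CPM. Epithelial markers (6 of 6) summed to 1617 CPM in 2L and 75.8 in 2R, and B and plasma cell markers (3 of 6) to 101 and 661 CPM. Mitochondrial ribosomal RNA took 0.877% of the counts in 2L and 24.7% in 2R. The part of these in the contrast of Pde3b and Pde7a was not tested. Between 4a and 4b, 0 of 9 members differed 2-fold in either direction, against 4.74% of genes higher and 3.53% lower in 4a, and Pde8a differed most, at -0.72 (12.8 against 21.2 CPM).

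Whether levels differed among the 6 numbers was asked with the quasi-likelihood F-test of edgeR over 15227 genes, whose spread rests on 2 residual degrees of freedom. Of the 9 members tested 0 passed an adjusted p of 0.05, as did 0% of all genes. At an unadjusted p under 0.05 stood 2 members, Pde4b (adjusted p = 0.165) and Pde3a (adjusted p = 0.173), alongside 3504 genes in all (23.01%). Adjusted p was 0.547 for Pde4d and 0.339 for Pde10a. DESeq2's likelihood ratio test called 2 of 9 members, Pde3a (adjusted p = 0.00196) and Pde4b (adjusted p = 0.00222), against 20.5% of all genes. The outcome hung on the pair 2L and 2R: without 2L, edgeR's quasi-likelihood F-test called 5 of 9 members and 36.9% of genes, and without 2R, 5 of 9 and 40.9%. These were Pde4a, Pde4b, Pde3a, Pde3b and Pde7a both times, and the spread then rests on 4a and 4b alone. Without a filter on low counts it called 4 of 10 members, Pde4a, Pde4b, Pde3a and Pde3b, against 21.1% of genes. Without tumor 3 the adjusted p was 0.679 for Pde4b and 0.649 for Pde3a. Over all alternatives the adjusted p of Pde4b ranged from 0.00222 to 0.679 and that of Pde3a from 4.168e-05 to 0.649.

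Over the 6 numbers 8 relations were computed, and 0 passed after adjustment. For Pde4b and the macrophage score, r was 0.751 with an exact permutation p of 0.153 (adjusted 0.611), rho was 0.314 with an exact permutation p of 0.564 (adjusted 0.752), and r was -0.253 once numbers 3 and 4, farthest from the median of Pde4b, were left out. For Pde4b and the CREB target score, r was 0.674 with an exact permutation p of 0.113 (adjusted 0.611), rho was 0.257 with an exact permutation p of 0.658 (adjusted 0.752), and r was -0.09353 without the same numbers. Leaving out numbers 3 and 4 takes away the lowest and highest Pde4b and leaves few points. These r were not tested and do not decide whether either relation holds. For Pde4d and the CREB target score, r was -0.17 and rho -0.486, with exact permutation p of 0.758 and 0.356 (adjusted 0.976 and 0.752), and r was -0.168 without numbers 1 and 2.

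Relations between paralogs, and of the Pde3 genes with tissue scores, did not pass either. Each r with numbers left out rests on the few numbers that remain and was not tested. For Pde4b and Pde4d, r was -0.0997 and rho 0.429 (exact permutation p of 0.839 and 0.419), and r was 0.247 without numbers 3 and 4. For Pde3a and Pde3b, r was -0.0256 and rho 0.486 (exact permutation p of 0.976 and 0.356), and r was 0.682 without numbers 3 and 6. For Pde7a and Pde7b, r was 0.228 and rho 0.371 (exact permutation p of 0.674 and 0.497), and r was 0.996 without numbers 3 and 5. For Pde3a and the smooth muscle and pericyte score, r was 0.468 and rho 0.371 (exact permutation p of 0.406 and 0.497), and r was 0.823 without numbers 3 and 6. For Pde3b and the adipocyte score, r was 0.0652 and rho -0.143 (exact permutation p of 0.904 and 0.803), and r was -0.453 without numbers 1 and 6. The adipocyte score holds only 2 of 6 markers, Fabp4 and Plin4. Adipoq, Plin1, Lep and Cidec averaged below 1 CPM, so this relation says little about fat cells. Adjusted p was 0.976 for r in all 5, and for rho 0.752 in the first 4 and 0.803 in the last. The coefficients depended on scaling: with library totals, which shift the median gene of tumor 3 by -1.36 on the log2 scale, r was 0.913 for Pde4b and Pde4d, 0.61 for Pde3a and Pde3b, 0.873 for Pde7a and Pde7b and 0.826 for Pde4d and the CREB target score, still with adjusted exact permutation p of 0.102 to 0.192.

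The genes whose log2 CPM most resembled the 3 most variable members over the 8 libraries, among 11554 genes with a mean of at least 5 CPM, were as follows, as a description of libraries that share depth and scaling. Hltf, which encodes a DNA-remodelling ubiquitin ligase, followed Pde3a with r = 0.997 and stood at 11.7 CPM in tumor 3 and 36.1 to 64.1 CPM in the others. Prkdc and Brcc3, both genes of DNA repair, followed at r = 0.982 and 0.979. Pde3b was followed by Basp1 (r = 0.973), Tanc2 (r = 0.956) and Arfgef2 (r = 0.922), and Basp1 was likewise lowest in 2R and 1, at 105 and 116 CPM. Pde4b was followed by Lacc1 (r = 0.995), an enzyme of macrophages, by Mdfic (r = 0.984) and by Dcaf17 (r = 0.982). Without tumor 3, r was 0.967, 0.89 and 0.825 for these, and 0.989, 0.879 and 0.871 for Hltf, Prkdc and Brcc3.

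The remaining phosphodiesterase genes were lower than the leading members. Of 6 others that cleave cyclic AMP, 5 reached 1 CPM: Pde8b averaged 4.44 CPM per kilobase and Pde1c, a calcium-dependent enzyme, 2.27. Pde1c was highest in tumor 5, at 121 CPM, against 14.9 to 64.1 in the other 7, and Pde11a was highest there as well, at 9.37 CPM against at most 2.13. Of 7 genes for enzymes of cyclic GMP, 2 reached 1 CPM. These were Pde5a, at 3.14 CPM per kilobase and 6.14 to 58.5 CPM, and Pde9a, highest in 2L at 20.7 CPM (range 1.09 to 20.7).

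The genes that make and relay cyclic AMP were present alongside. No gene of these lists passed edgeR's quasi-likelihood F-test after adjustment among numbers, and at an unadjusted p under 0.05 stood 6 of 9 adenylyl cyclases tested, 2 of 7 G protein subunits, 2 of 9 protein kinase A genes, 4 of 7 other effectors, 4 of 14 anchors and partners, 1 of 8 CREB factors and coactivators and 10 of 15 CREB targets, against 23.01% of all genes. Adcy2 was the leading cyclase at 39.2 CPM per kilobase, at 91.7 CPM in tumor 5 and 159 to 193 CPM in the other 7. Adcy7 averaged 12.9 CPM per kilobase, and Adcy8, which had the largest SD, ranged from 0.0407 CPM in 6 to 9.68 CPM in tumor 1. Gnas, which encodes the stimulatory subunit and hosts overlapping transcripts, averaged 91.5 CPM per kilobase and Gnai2, an inhibitory subunit, 44.6. Gnas ranged from 288 CPM in tumor 3 to 1740 CPM in 2L, and Gnao1 from 1.83 CPM in 6 to 57.0 CPM in 3.

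Prkar1a, the regulatory subunit that holds protein kinase A inactive, was the most abundant kinase gene at 56.6 CPM per kilobase, with a narrow range of 191 to 283 CPM. The catalytic subunit gene Prkaca averaged 20.0 CPM per kilobase, close to the leading phosphodiesterases with all exons as length. Pde4d has 12006 bases of exons but a longest transcript of 4207 bases. The comparison with Prkaca was not repeated with that length. The kinase inhibitor gene Pkib had no count in tumor 3, which allows up to 1.60 CPM, against 2.40 to 8.94 CPM in the others. The exchange factors Rapgef4 and Rapgef3, which cyclic AMP activates independently of the kinase, averaged 15.2 and 8.16 CPM per kilobase, and Bves, a cyclic AMP-binding membrane protein of muscle, did not exceed 5.86 CPM. Among scaffolds that tether these enzymes, Rack1, a partner of the Pde4d product, averaged 101 CPM per kilobase. Akap12 reached 370.2 CPM in tumor 3 and 295 in tumor 6, against 82.4 to 98.9 CPM elsewhere. Akap6 stood at 304 CPM in tumor 3 and at most 20.0 CPM in the other 7, and it is known as an anchor of heart and muscle. Skeletal muscle markers summed to 6604 CPM in tumor 3 and to 20430 CPM in 2L, where Akap6 stood at 17.2 CPM. The part of muscle in the level of Akap6 was not tested.

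Among the factors that read the signal, Crem and Crebbp averaged 15.4 and 11.4 CPM per kilobase, Crebbp with a range of 131 to 185 CPM, and Crtc2 ranged from 6.46 CPM in 6 to 27.7 CPM in 3. The median SD of log2 CPM was 1.13 for target genes, against 0.32 for the factors and 0.625 over all genes tested. Rgs2 and Gem, regulators of G proteins and of small GTPases, led at 39.04 and 38.7 CPM per kilobase, both lowest in tumor 3 with this scaling, at 12.8 and 11.7 CPM and highest in 2R at 382 and 245 CPM. Areg, a ligand of the EGF receptor, had the largest SD and reached 48.7 CPM in tumor 6.

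**Figure D5:**
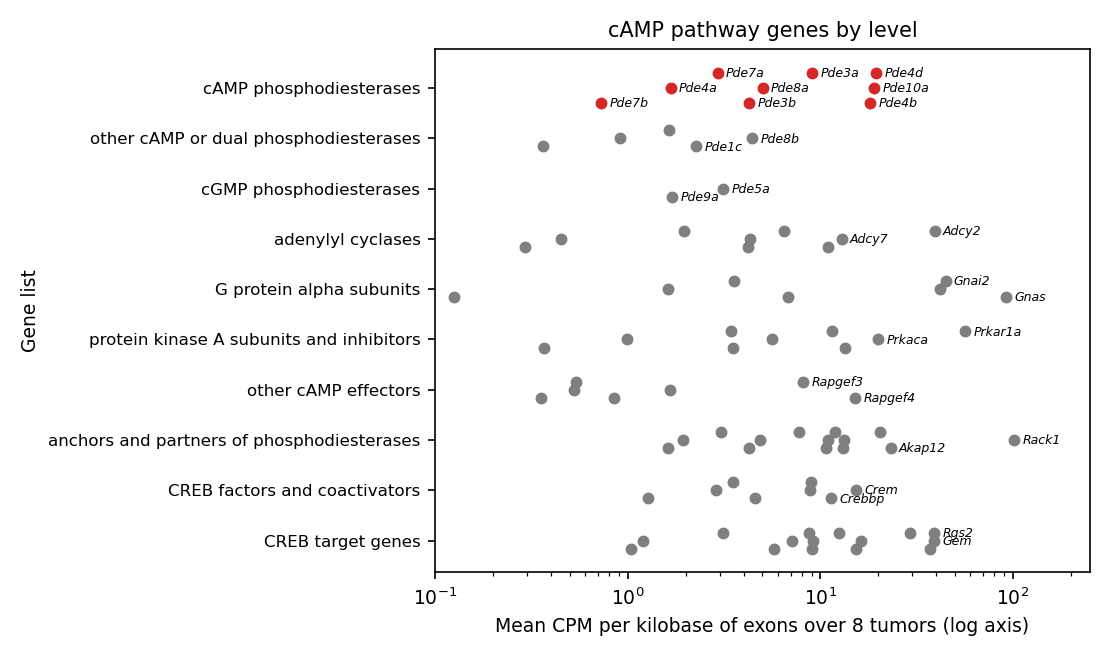
Mean level in CPM per kilobase of exons (log axis) of genes with a mean of at least 1 CPM over 8 tumors, by list; red points are the 9 cyclic AMP phosphodiesterase genes that reached it, grey points the other lists, with the leading genes named. With all exons as length, Pde4d, Pde10a and Pde4b lie near Prkaca at 20.0, below Adcy2 at 39.2 and Gnas at 91.5. Lists were not compared with the longest transcript as length.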

How the data were processed

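The authors deposited raw counts per Ensembl gene for 8 libraries. The tools named, per the submitters' processing notes, are STAR 2.7.5a, RSEM, featureCounts and cutadapt, and the build is mm10; their order and strand handling are not given in the sources used here. GENCODE M21 named 99.31% of 49671 identifiers. Counts were handled with edgeR 4.0.16 and DESeq2 1.42.0 under R 4.3.3. TMM factors came from 11505 genes kept by filterByExpr (0.394 in tumor 3 to 1.365 in 2L), and CPM were taken from these. Log2 CPM used a prior count of 2. Levels were divided by the union of exons. Genes averaging at least 1 CPM (15227) were tested among the 6 numbers, with adjustment after Benjamini and Hochberg. A list score is the mean log2 CPM of its members averaging 1 CPM. No 2 libraries agreed within sampling noise (chi-square per degree of freedom at least 78.0). Simulated data were used to test the edgeR fit. Intervals are Clopper-Pearson. Members and lists were chosen with earlier results of these data known. The text names from each list the 2 genes of highest level, the 1 of largest SD, and 3 genes most similar to each of the 3 most variable members. Tumor 3 was singled out, and Pde4b with Pde4d and Pde3a with Pde3b compared in counts, after values were seen. Alternatives covered scaling, filters, tool, prior, length, list medians and left-out libraries.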

Additional observations from a re-analysis of the deposited data

Results flagged for a closer look

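Each of the 36 named genes was checked for a library whose distance from its nearest neighbour took up more of the range of log2 CPM over the 8 libraries than Dixon's 95% critical value. Chance marks about 1 in 20 groups of independent values that were not picked for their spread. Some of these genes were picked for a large SD, and all share the same libraries. The 5 genes marked can therefore not be set against that rate. Pde4b stood at 46.3 CPM in tumor 3, against 159 to 271 CPM in the other 7, and Pde3a at 18.1 CPM in tumor 3, against 71.9 to 165 CPM. Rgs2 stood at 12.8 CPM in tumor 3, against 93.6 to 382 CPM. Pkib had 0 counts and thus 0 CPM in tumor 3, against 2.40 to 8.94 CPM. Adcy2 stood at 91.7 CPM in tumor 5, against 159 to 193 CPM. Of the 5 marks, 4 fall on tumor 3, which has the fewest counts and the lowest TMM factor; the part of either in these values was not tested.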

How the results depend on the processing

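The count of genes that differed among numbers, 0 with edgeR's quasi-likelihood F-test, was 268 with library totals, 6405 without a filter on low counts and 3121 with DESeq2's likelihood ratio test. It ranged from 0 to 6237 when 1 library was left out, and only leaving out 2L or 2R moved it. Members passed without a filter (4 of 10, Pde4a, Pde4b, Pde3a and Pde3b, against 21.1% of genes), with DESeq2 (2 of 9) and without 2L or 2R (5 of 9 each). Neighbours in the order passed in 3 steps with 8 libraries as units, which counts libraries of the same number as independent. Pde10a over Pde4b turned to -0.28 with the longest transcript, and Pde8a over Pde3b to -0.735 without division by length; the change of length makes these shifts. With the longest transcript Pde4b and Pde4d held 62.3% of the summed level in place of 46.9%, and Pde3a 5.79% in place of 11.1%. The 8 relations gave 0 calls under all 8 alternatives, but some r changed sign, and the cause was not tested. With library totals r was 0.913 for Pde4b with Pde4d, 0.61 for Pde3a with Pde3b and 0.826 for Pde4d with CREB targets. It was 0.0261 for Pde3a with Pde3b with DESeq2 size factors, and 0.123 for Pde4d with CREB targets with totals without abundant and mitochondrial RNA. With 1 library of number 2 or 4 left out, r ranged from -0.247 to 0.0427, from -0.0497 to 0.0715 and from -0.373 to 0.144 for these 3 relations. Library totals without abundant and mitochondrial RNA raised the median of all genes by a mean of 0.54 on the log2 scale. No paired analysis was possible because the labels hold 1 group. Leaving out tumor 1, 3, 5 or 6 leaves 5 numbers, with which the order tests cannot pass, and order tests and relations were not run there. Depth limits tumor 3, where 7 counts support Pde7b and 34 Pde3a.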
